A study of Mus musculus with 14 samples.

Results

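Long non-coding RNAs (lncRNAs) of photoreceptors were followed in RNA-seq and in open chromatin. The 8 genes, Malat1, Neat1, Tug1, Snhg11, Meg3, Rian, Mirg and Miat, were chosen by name, with earlier results of these data known, and all 8 were found among the 24421 genes of the RNA-seq count table. Of 53204 ATAC-seq elements, 31 lay within 50 kb of one of these genes in the GRCm38/mm10 assembly. An element is a 200 bp interval centered on the summit of a peak of open chromatin. All cells were sorted by fluorescence (FACS) from retinas of C57BL/6 mice aged 8 weeks. Nrl-/- photoreceptors, labelled as blue cones, came from Nrl-eGFP;NrlKO mice, in which the Nrl promoter drives GFP and the rod-determining factor NRL is missing. Native green cones came from Opn1mw-GFP mice, sorted either a single time or in a double sort, and rods came from Nrl-eGFP mice. RNA-seq comprised 3 libraries of Nrl-/- photoreceptors and 3 of rods, and ATAC-seq comprised 2 libraries each of Nrl-/- photoreceptors, double-sorted green cones, single-sorted green cones and rods. Nrl-/- photoreceptors differ from rods in genotype as well as in cell type, and these cannot be told apart here. No RNA-seq of green cones was analysed here. The study's sample listing gives the first single-sorted green library the Nrl-/- line, against its label, and the label was followed.

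An lncRNA is a long transcript that is not translated into a large protein, and many act in the nucleus. Malat1 is among the most abundant nuclear RNAs of mammalian cells and gathers in nuclear speckles, which store splicing factors, while Neat1 is the scaffold of paraspeckles, another class of nuclear body. Tug1 was first described in the mouse retina, where it is needed for photoreceptor differentiation, and Miat, also called Gomafu, is a nuclear RNA of retinal and other neurons. Snhg11 is a host gene of small nucleolar RNAs (snoRNAs). Meg3, Rian and Mirg are transcribed from the maternal copy of the imprinted Dlk1-Dio3 region and carry many microRNAs and snoRNAs in their introns and exons.

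RNA-seq libraries held between 18376770 and 26312895 reads assigned to genes, and ATAC-seq libraries between 1062403 and 5770075 reads in elements, the 2 double-sorted green libraries being the shallowest. Nrl, the deleted gene, was at 34.5, 39.3 and 24.6 CPM (reads scaled to the total of each library) in Nrl-/- libraries, against 599, 845 and 745 CPM in rod libraries (log2 fold change -4.48, SE 0.20, adjusted p = 1.04e-08). Of the listed cone markers 8 of 8 were called higher in Nrl-/- photoreceptors, and of the rod markers 7 of 8 were called lower. Some markers of other retinal cells also differed between the groups. The 11 bipolar cell markers summed to between 1417 and 1622 CPM in Nrl-/- libraries, against 87.7 to 127 CPM in rod libraries, with 4 of 10 tested called higher and 1, Prkca, lower. Cabp5 alone made up 1325 to 1515 CPM of the Nrl-/- sums, and without it, a choice made after its values were seen, the sums overlapped, at 91.6 to 156 CPM in Nrl-/- libraries and 75.5 to 109 CPM in rod libraries. Prkca, which was kept, made up 51.0 to 55.3 CPM of the rod sums and 5.76 to 10.2 CPM of the Nrl-/- sums. The overlap depended on keeping Prkca. The 8 Müller glia markers summed to between 716 and 877 CPM in Nrl-/- libraries, against 92.2 to 150.1 CPM in rod libraries, with 2 of 8, Clu and Apoe, called higher and a median log2 fold change of -0.021. Without these 2 the sums were 31.4 to 47.0 CPM in Nrl-/- libraries and 41.8 to 63.4 CPM in rod libraries. The 9 microglia markers summed to between 35.9 and 87.2 CPM in Nrl-/- libraries, against 14.2 to 17.5 CPM in rod libraries, with 5 of 8 tested called higher. The study describes the libraries of a group as biological replicates.

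Of the 31 elements, 6 passed a test against rods, and their sequences are shown because the chromatin results below turn on them. All are from the RefSeq copy of GRCm38.p6 and run 5′ to 3′ on the strand of the named lncRNA. In the Tug1 element (chr11:3649053-3649252, minus strand), capitals mark GGGCGG, the GC box, and CCAAT, on either strand. In the Meg3 element (chr12:109509640-109509839, plus strand) they mark CTAATCC, a site type bound by the photoreceptor factors CRX and OTX2, and AGGTCA, a nuclear receptor half-site. In the Mirg element (chr12:109749802-109750001, plus strand) they mark TAATTA, a homeodomain site. In the Malat1 element (chr19:5803237-5803436, minus strand) and in both Miat elements (chr5:112243980-112244179 and chr5:112240845-112241044, minus strand) none of the motifs searched was present, so no base is in capitals.
Tug1 promoter: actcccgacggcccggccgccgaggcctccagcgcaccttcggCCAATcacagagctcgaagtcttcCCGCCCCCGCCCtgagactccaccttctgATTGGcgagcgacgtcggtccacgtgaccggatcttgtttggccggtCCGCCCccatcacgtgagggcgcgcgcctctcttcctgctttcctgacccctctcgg
Malat1 promoter: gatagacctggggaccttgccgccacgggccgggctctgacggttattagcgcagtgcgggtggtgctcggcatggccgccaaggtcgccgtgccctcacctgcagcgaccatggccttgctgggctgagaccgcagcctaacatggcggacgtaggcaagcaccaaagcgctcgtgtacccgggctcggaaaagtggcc
Meg3 upstream: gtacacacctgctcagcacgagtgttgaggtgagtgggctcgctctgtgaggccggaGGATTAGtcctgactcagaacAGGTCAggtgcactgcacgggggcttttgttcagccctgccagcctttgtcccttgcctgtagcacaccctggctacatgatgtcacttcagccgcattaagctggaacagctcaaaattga
Mirg downstream: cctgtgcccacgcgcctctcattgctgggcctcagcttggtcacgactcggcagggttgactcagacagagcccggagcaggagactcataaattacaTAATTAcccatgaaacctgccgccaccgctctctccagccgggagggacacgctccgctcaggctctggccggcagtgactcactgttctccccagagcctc
Miat far upstream: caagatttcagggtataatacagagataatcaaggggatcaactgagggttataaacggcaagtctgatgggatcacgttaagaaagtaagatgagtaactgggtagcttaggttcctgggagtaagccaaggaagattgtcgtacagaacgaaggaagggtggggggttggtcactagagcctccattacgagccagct
Miat near upstream: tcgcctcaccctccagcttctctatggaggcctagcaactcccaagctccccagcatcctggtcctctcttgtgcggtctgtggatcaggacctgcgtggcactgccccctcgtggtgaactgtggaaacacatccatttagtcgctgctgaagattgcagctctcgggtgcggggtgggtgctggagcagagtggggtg

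The first question was whether these lncRNAs are expressed at different levels in Nrl-/- photoreceptors and rods. In RNA-seq, Malat1, Tug1 and Neat1 were lower in every Nrl-/- library than in every rod library, and Snhg11 was higher in every Nrl-/- library. Meg3 levels overlapped between the groups, and Rian, Mirg and Miat were at or near 0 reads in both. A gene was called when edgeR's test against a log2 fold change of 1 (a doubling or halving) gave a Benjamini-Hochberg adjusted p under 0.05 over all 12327 genes tested. Of the 8 lncRNAs 5 had enough reads to be tested, and 0 were called in either direction, against a background of 13.3% of genes called higher and 6.88% called lower. At an unadjusted p under 0.05 the same test passed 2 of the 5, and DESeq2 called 0. The share of all genes at that unadjusted limit is not given, so the 2 cannot be judged against it. Against no change instead, with the same adjusted p limit, 1 was higher and 3 were lower, where 31.4% and 29.5% of all genes were. The median log2 fold change of the 5 was -0.71, and that of all genes tested was -0.01.

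**Figure D1:**
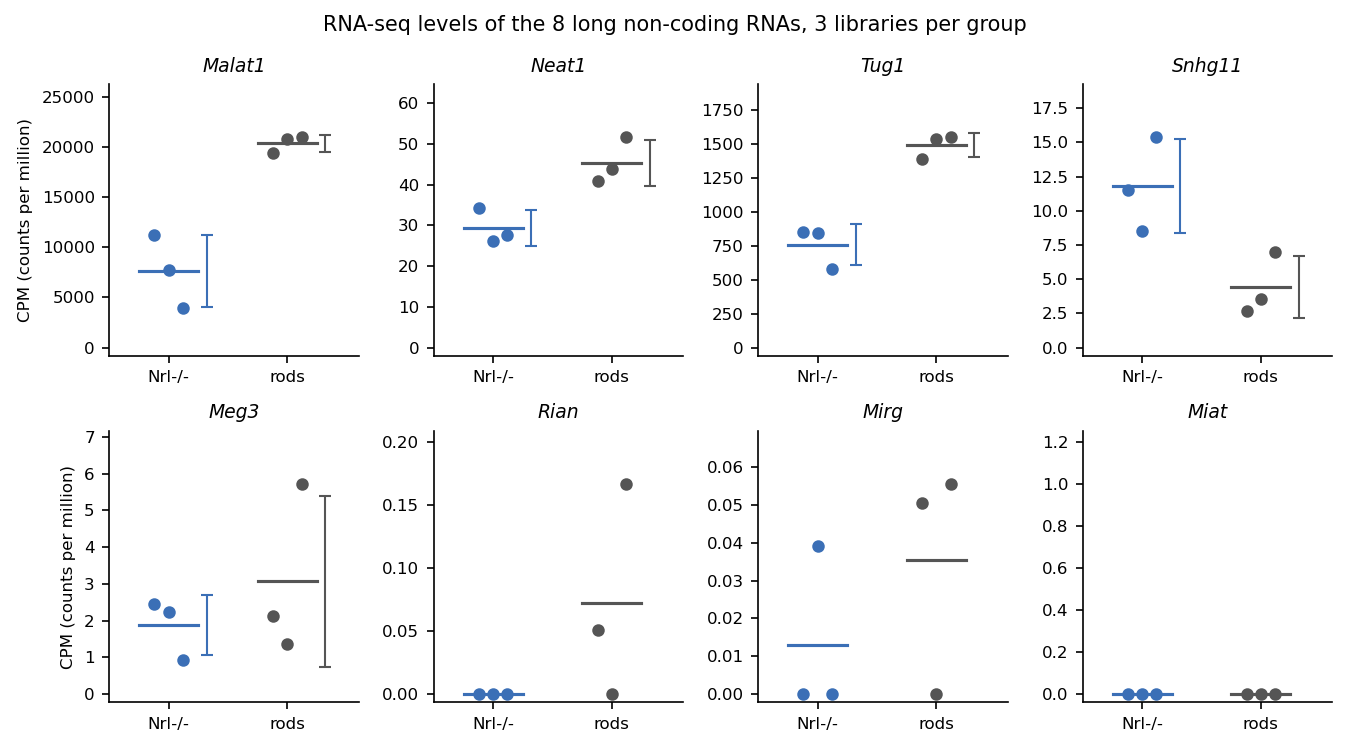
RNA-seq level in CPM of each lncRNA in the 3 Nrl-/- libraries (left of each panel) and the 3 rod libraries (right), with the mean as a bar and the SD beside it for the 5 tested genes. Groups are apart for Malat1, Neat1, Tug1 and Snhg11, overlap for Meg3, and lie at or near 0 for Rian, Mirg and Miat.

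Malat1, on chr19:5795690-5802672 (minus strand, a single exon of 6983 bp), was at 11206, 7754 and 3968 CPM in Nrl-/- libraries, against 19443, 20803 and 21020 CPM in rod libraries. The rod libraries were close to each other, whereas the Nrl-/- libraries spread widely and all lay below them. The log2 fold change was -1.42 (SE 0.29), with an edgeR adjusted p of 0.110 against a change of 1 and of 0.0011 against no change. Without Nrl-/- replicate 1, the library with the highest Malat1 of its group, the change was -1.81 and passed the limit (adjusted p = 0.0032), and over all libraries left out in turn the adjusted p lay between 0.0032 and 0.433. It also passed with no filter on low counts (-1.44, adjusted p = 0.042).

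Tug1, on chr11:3639785-3648814 (minus strand), was at 848, 844 and 582 CPM in Nrl-/- libraries, against 1386, 1538 and 1550 CPM in rod libraries. The groups did not overlap, and the log2 fold change was -0.98 (SE 0.15, adjusted p = 0.875 against a change of 1 and 0.00019 against no change). Neat1, on chr19:5824708-5845480 (minus strand), was at 34.4, 26.2 and 27.6 CPM in Nrl-/- libraries, against 40.8, 43.8 and 51.7 CPM in rod libraries. These groups did not overlap either, with a log2 fold change of -0.63 (SE 0.15, adjusted p = 0.0029 against no change). Of all genes tested, 33.2% had no overlap between groups and lower values in Nrl-/- photoreceptors, so such a separation was common.

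Snhg11, on chr2:158375713-158386474 (plus strand), was the only one of the 5 tested lncRNAs with a higher level in Nrl-/- photoreceptors. It was at 11.5, 8.55 and 15.4 CPM in Nrl-/- libraries, against 2.68, 3.55 and 7.01 CPM in rod libraries. Rod replicate 3 stood nearest to the Nrl-/- libraries. The log2 fold change was 1.42 (SE 0.33, adjusted p = 0.154 against a change of 1 and 0.0030 against no change), and without rod replicate 3 it was 1.91 (adjusted p = 0.011, the lowest of a range up to 0.479 over libraries left out in turn). The bipolar cell marker sum without Cabp5 was 91.6, 107 and 156 CPM in Nrl-/- libraries, against 75.5, 81.6 and 109 CPM in rod libraries. It overlapped between the groups and was highest in replicate 3 of each, as Snhg11 was. Prkca, the 1 bipolar marker called lower, made up 51.0, 55.3 and 51.4 CPM of these rod sums. Of the Nrl-/- sums it made up 10.2, 9.29 and 5.76 CPM, and the overlap depended on keeping it. The 10 tested bipolar markers, Cabp5 among them, had a median log2 fold change of 1.33, with 4 called higher. The part of other retinal cells in the Snhg11 level was not tested, and in sorted pools fewer cells of a type and less RNA per cell cannot be told apart.

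Meg3, the lncRNA at the start of the maternal transcripts of its region (chr12:109540996-109571729, plus strand), was at 2.45, 2.22 and 0.936 CPM in Nrl-/- libraries, against 2.13, 1.36 and 5.73 CPM in rod libraries. The groups overlapped, rod replicate 3 was highest, and the log2 fold change of -0.71 (SE 0.52, adjusted p = 0.26 against no change) became 0.09 without that library. Rian (chr12:109603945-109661716, plus strand) had 0, 0 and 0 reads in Nrl-/- libraries, against 1, 0 and 3 in rod libraries. Mirg (chr12:109734981-109749458, plus strand) had 0, 1 and 0 reads in Nrl-/- libraries, against 1, 0 and 1 in rod libraries. Both lncRNAs were at or under the detection floor of 3 reads per library, so no fold is given. The floor equals 0.112 to 0.118 CPM in Nrl-/- libraries and 0.152 to 0.167 CPM in rod libraries. Intervals and floors cover counting error only.

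The protein-coding genes of the Dlk1-Dio3 region were as scarce in these counts. Dlk1, a transmembrane inhibitor of Notch signalling, and Dio3, the deiodinase that inactivates thyroid hormone, had 0 reads in every library. Rtl1, a protein-coding gene on the opposite strand, overlaps Meg3 exons over 4091 bp. Rtl1 reads and Meg3 reads from that stretch cannot be separated if the counting ignored strand, which is not given in the sources used here. Such reads may then have been left out of both genes, whose levels would be too low. Between 0.633 and 0.794% of reads per library were set aside as ambiguous between genes. Of the small RNA genes whose span overlaps a lncRNA, Meg3 has 2 microRNAs, Rian 3 microRNAs and 11 snoRNAs, Mirg 10 microRNAs and Snhg11 2 snoRNAs. Of all genes with such an overlap, the count table as used here listed 3 of 3 for Meg3, 11 of 15 for Rian, 10 of 10 for Mirg and 0 of 2 for Snhg11, and 0 of those listed had enough reads to be tested. No small RNA library was analysed here, so these counts do not measure the level of mature microRNAs or snoRNAs. Miat (chr5:112213228-112228948, minus strand) had 0 reads in all 6 libraries, which allows up to 0.118 CPM in any Nrl-/- library and up to 0.167 CPM in any rod library.

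Levels were then compared between the lncRNAs as RPKM, which is CPM divided by the length of all annotated exons in kilobases. In both cell types Malat1 came first, at 1094 ± 518 RPKM in Nrl-/- photoreceptors and 2925 ± 122 RPKM in rods (SD, n = 3 each). This placed it at rank 22 in Nrl-/- photoreceptors and rank 9 in rods among 23175 genes with a length. Malat1 alone took 0.403 to 1.17% of reads assigned to genes in Nrl-/- libraries and 1.91 to 2.06% in rod libraries. Tug1 followed at 112 ± 22.5 RPKM in Nrl-/- photoreceptors and 220 ± 13.4 RPKM in rods, ranks 438 and 129. The ranges of Malat1 and Tug1 were apart from each other and from all other members in both cell types.

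Below them, the order by this measure differed by cell type. Neat1 has 2 annotated transcripts and was divided by an exon length of 20773 bp. A shorter length would raise its RPKM, so its place beside Snhg11 depends on this choice. In Nrl-/- photoreceptors Snhg11 (1.93 ± 0.561 RPKM) and Neat1 (1.41 ± 0.211 RPKM) overlapped in range, and Meg3 (0.144 ± 0.063 RPKM) lay below both. In rods Neat1 (2.19 ± 0.271 RPKM) lay above Snhg11 (0.721 ± 0.374 RPKM), whose range overlapped that of Meg3 (0.237 ± 0.180 RPKM). Mirg, Rian and Miat could not be ordered in either cell type.

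Genes with the most similar pattern over the 6 libraries were found by the Euclidean distance between centred log2 CPM values. Closest to Malat1 were Fryl (distance 0.273) and Zfp146 (0.317), closest to Tug1 were Cwf19l1 (0.0941) and Chkb (0.11), and closest to Neat1 were Rapgef2 (0.0817) and Ankrd12 (0.0949). Snhg11 was nearest to Gm10125 (0.281) and Lmo2 (0.476). For Meg3 the nearest genes, Tmc6 (0.765) and 4921507L20Rik (0.846), were farther away than for any other tested member.

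The 8 lncRNAs were next set beside other lncRNAs. Of 67 other named lncRNAs 53 were in the table and 35 were tested, with 4 called higher and 4 called lower in Nrl-/- photoreceptors and a median log2 fold change of -0.69. Over all 507 tested genes that RefSeq annotates as lncRNA, 47 were called higher and 62 lower (21.5% in all), with a median of -0.24. Of all 12327 genes tested, 13.3% were called higher and 6.88% lower. Vax2os, a transcript next to the eye transcription factor gene Vax2, was at 16.7, 18.5 and 8.23 CPM in Nrl-/- libraries, against 687, 822 and 825 CPM in rod libraries (log2 fold change -5.75, SE 0.27, adjusted p = 1.22e-08). No Nrl-/- library came near a rod library. Rpph1, the RNA of ribonuclease P, was also lower (log2 fold change -2.69, SE 0.65, adjusted p = 0.026). Its call rests on few reads, at 0.197, 0.078 and 0.299 CPM in Nrl-/- libraries, against 2.23, 0.678 and 0.890 CPM in rod libraries. Crnde was at 0.553, 0.585 and 0.561 CPM in Nrl-/- libraries, against 0.101, 0 and 0 CPM in rod libraries. Trp53cor1, also called lincRNA-p21, was at 0.789, 0.820 and 0.524 CPM in Nrl-/- libraries, against 0.152, 0 and 0 CPM in rod libraries. Both were called higher on few reads.

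**Figure D2:**
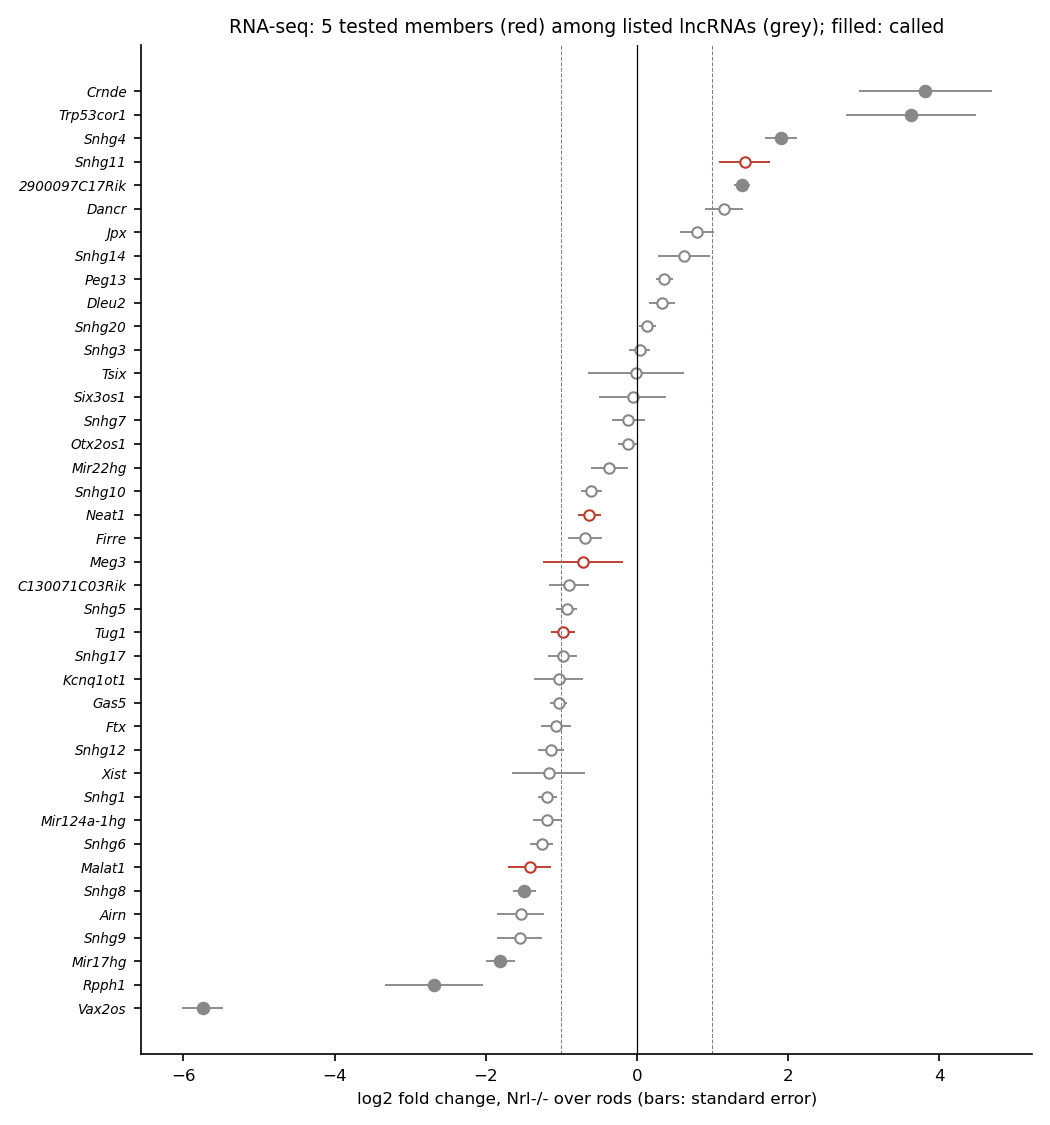
Log2 fold change of Nrl-/- photoreceptors over rods with its standard error for the 5 tested members (red) and the 35 other tested lncRNAs (grey), with filled points for genes called and dashed lines at -1 and 1. Members lie between -1.42 (Malat1) and 1.42 (Snhg11), all open, while Vax2os at -5.75 lies farthest out.

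RNA was also counted for genes that encode proteins of the nuclear bodies of Neat1 and Malat1, or regulators of splicing or translation. Of 25 tested paraspeckle proteins 0 were called higher and 1 lower, Taf15, an RNA-binding protein (1.09 to 2.17 CPM in Nrl-/- libraries, 6.62 to 8.96 CPM in rod libraries, log2 fold change -2.23, SE 0.30, adjusted p = 0.00116), and the median was -0.47, where 13.3% of all genes were called higher and 6.88% lower. Pspc1, named after the paraspeckle, had a log2 fold change of -1.15 (SE 0.16) and Tardbp, which encodes TDP-43, of -0.88 (SE 0.11), without a call. Of 21 tested nuclear speckle and splicing genes 4 were called higher and 1 lower, with a median of -0.44, against the same shares of all genes. The 4 are RNA-binding regulators of splicing or translation in neurons and their precursors: Celf3 (log2 fold change 4.82, SE 0.31), Nova1 (4.82, SE 0.40), Nova2 (2.65, SE 0.65) and Msi1 (1.63, SE 0.15). Msi2, the Musashi paralogue of Msi1, was called lower (-1.36, SE 0.17). Srrm2, a core protein of nuclear speckles, was at 111 to 189 CPM in Nrl-/- libraries and 306 to 342 CPM in rod libraries (log2 fold change -1.17, SE 0.17, adjusted p = 0.24).

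The share of reads that fell outside annotated exons was, like Malat1, lower in every Nrl-/- library than in every rod library. It was 19.5, 14 and 10.4% of aligned reads in Nrl-/- replicates 1, 2 and 3, against 24.5, 20 and 24.1% in rod replicates 1, 2 and 3. Within Nrl-/- libraries Malat1 and this share were both highest in replicate 1 and both lowest in replicate 3. Within rod libraries the order was another, since replicate 1 had the highest share and the lowest Malat1 level (19443 CPM). Nrl-/- replicate 1 and rod replicate 2 had close shares, with Malat1 at 11206 and 20803 CPM. Tug1 was also lowest in Nrl-/- replicate 3, at 582 CPM. The study's sample metrics list lower RNA integrity for rods than for Nrl-/- photoreceptors. The part of RNA integrity or of unspliced RNA in these differences was not tested.

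**Figure D3:**
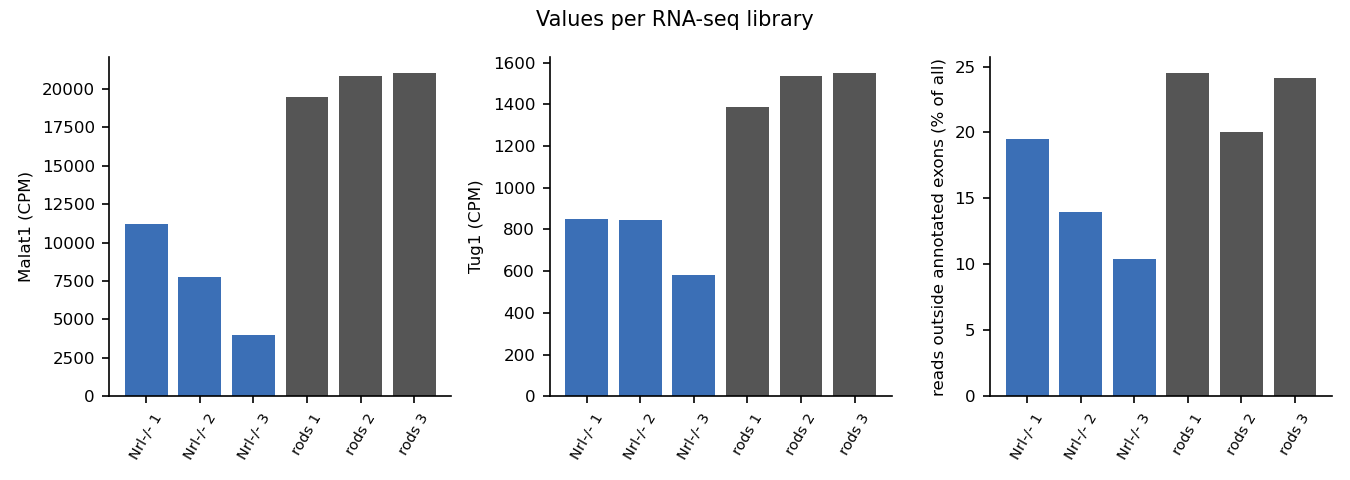
Malat1 and Tug1 in CPM and the percentage of reads outside annotated exons, a bar per RNA-seq library, Nrl-/- in blue and rods in grey. Nrl-/- replicate 3 has the lowest bar in all 3 panels (3968 CPM, 582 CPM and 10.4%).

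The second question was whether chromatin around these genes is open to different degrees. By nearest gene, the 31 elements divided into 9 at Malat1, 5 at Neat1, 6 at Snhg11, 6 at Miat, 3 at Meg3, 1 at Mirg, 1 at Tug1 and 0 at Rian. Promoters, taken as 1000 bp upstream to 100 bp downstream of an annotated start, held an element for Tug1 (1) and Malat1 (3) and for no other member. Read sums over the 31 elements were 524 and 531 CPM in Nrl-/- libraries, 433 and 447 CPM in double-sorted green libraries, 493 and 484 CPM in single-sorted green libraries, and 688 and 676 CPM in rod libraries.

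Both cone types (Nrl-/- photoreceptors with double-sorted green cones) were compared with rods, and then Nrl-/- photoreceptors alone with rods. These comparisons share the Nrl-/- and rod libraries. An element was called at an edgeR adjusted p under 0.1 against a log2 fold change of 1. In cones 3 of 28 tested elements were called higher and 1 lower, where 18.1% and 3.98% of all 51563 tested elements were. In Nrl-/- photoreceptors alone 3 of 28 were called higher and 2 lower, where 21.0% and 6.38% of 49364 were. The median log2 fold change of the 28 was -0.44 in cones, against 0.13 over all elements, and -0.45 in Nrl-/- photoreceptors, against 0.07. Groups did not overlap for 4 higher and 13 lower elements in cones (30.0% and 26.9% of all elements) and for 9 higher and 15 lower elements in Nrl-/- photoreceptors (41.3% and 35.6%). Tested against no change, 5 elements were higher and 7 lower in cones (27.8% and 18.3% of all elements), and 6 were higher and 10 lower in Nrl-/- photoreceptors (33.5% and 27.5%). When libraries were scaled by all processed reads in place of reads in elements, fold changes shifted by a median of -0.45 and -0.53 over all elements. All elements called then divided into 6424 higher and 3518 lower in cones, against 9340 and 2054 before, and 5972 and 4028 in Nrl-/- photoreceptors, against 10377 and 3151.

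**Figure D4:**
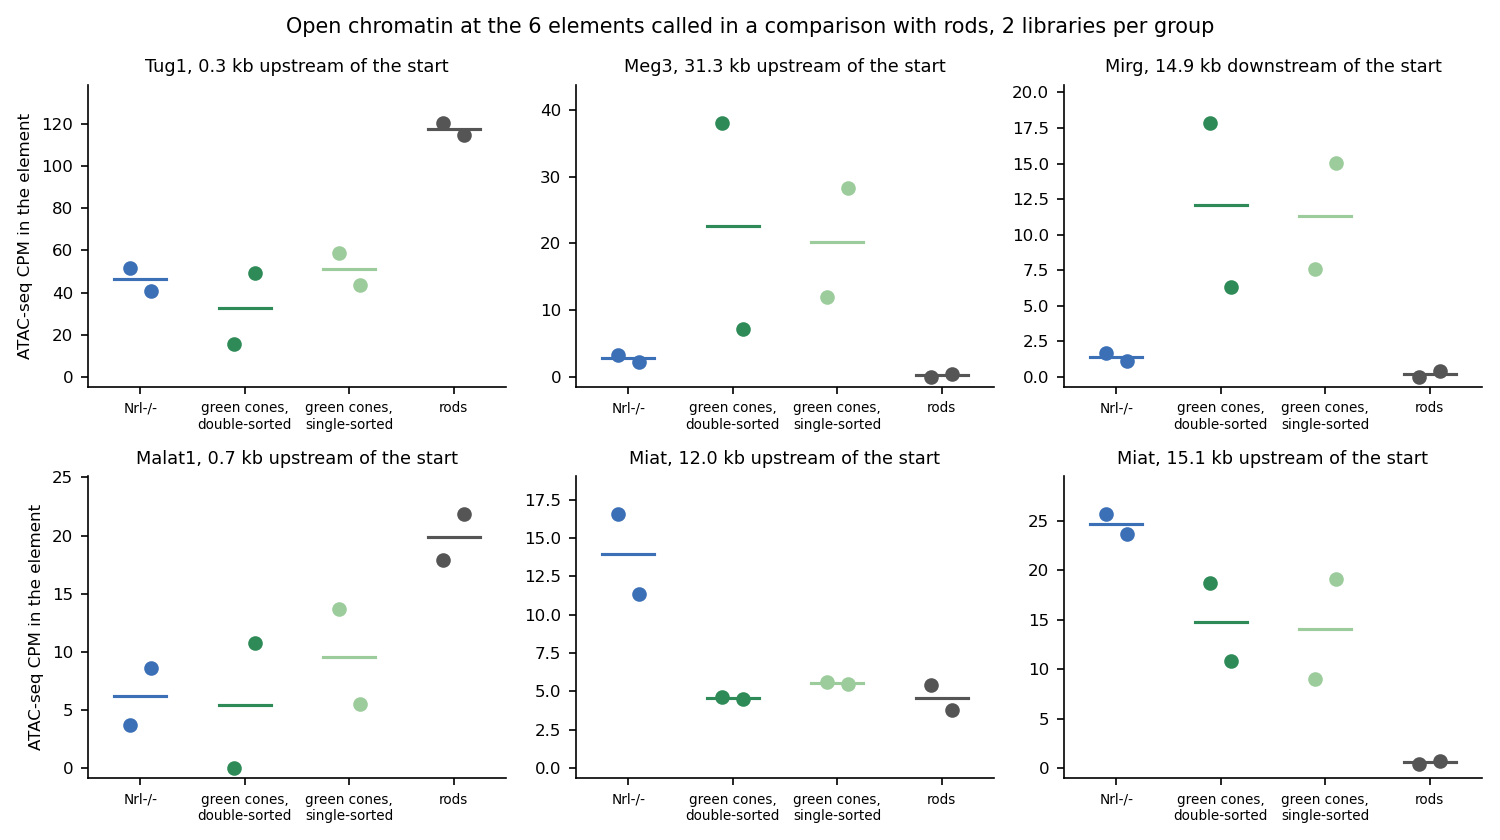
ATAC-seq CPM of the 6 called elements in Nrl-/- photoreceptors, double-sorted green cones, single-sorted green cones and rods, a point per library and a bar at the mean. Rods are highest at the Tug1 and Malat1 elements (115 to 121 CPM and 17.9 to 21.8 CPM) and lowest, under 1 CPM, at the Meg3 and Mirg elements and at the Miat element 15.1 kb upstream.

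The Tug1 promoter element lies 338 bp upstream of the Tug1 start and also within the promoter of Morc2a, a protein-coding gene transcribed the other way. Its level was 51.7 and 40.9 CPM in Nrl-/- libraries, 15.5 and 49.4 CPM in double-sorted green libraries, 58.6 and 43.8 CPM in single-sorted green libraries, and 121 and 115 CPM in rod libraries. All 6 cone libraries were below both rod libraries. The log2 fold change was -1.57 (SE 0.31, adjusted p = 0.075) in cones over rods and -1.36 (SE 0.13, adjusted p = 0.0065) in Nrl-/- photoreceptors over rods. DESeq2 gave like fold changes without a call (adjusted p = 0.485 and 0.146). The call in cones was also lost without rod replicate 1, rod replicate 2 or Nrl-/- replicate 2 (adjusted p = 0.246, 0.198 and 0.124), and the call in Nrl-/- photoreceptors without Nrl-/- replicate 2 (adjusted p = 0.158). In RNA-seq, Morc2a was at 19.3, 17.1 and 18.4 CPM in Nrl-/- libraries, against 28.3, 25.3 and 23.2 CPM in rod libraries (log2 fold change -0.49, SE 0.14), so both genes that share the element had lower values in Nrl-/- photoreceptors.

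Malat1 and Neat1 are neighbours on chromosome 19, and most of the 14 elements nearest to them had negative fold changes in cones. Of 13 tested in cones over rods 12 had negative fold changes, with a median of -0.91, and of 14 tested in Nrl-/- photoreceptors over rods 13 did, with a median of -0.78, where 53.9% and 52.6% of all elements had positive ones. The element 664 bp upstream of the Malat1 start was at 3.7 and 8.6 CPM in Nrl-/- libraries, 0 and 10.8 CPM in double-sorted green libraries, 13.7 and 5.5 CPM in single-sorted green libraries, and 17.9 and 21.8 CPM in rod libraries. It was the only called element of the 14, in Nrl-/- photoreceptors over rods (log2 fold change -1.56, SE 0.32, adjusted p = 0.051). That call was lost without rod replicate 2 (adjusted p = 0.164), without Nrl-/- replicate 1 (0.305) and in DESeq2 (0.647).

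The other promoter elements of Malat1 had lower values in cones as well. At the start itself, 8 bp downstream, the level was 10.8 and 10.0 CPM in Nrl-/- libraries, 1.6 and 3.6 CPM in double-sorted green libraries, 10.0 and 2.7 CPM in single-sorted green libraries, and 20.8 and 21.7 CPM in rod libraries. The log2 fold change was -1.55 (SE 0.49) in cones and -1.03 (SE 0.26) in Nrl-/- photoreceptors, without a call. The most open of the 3, 977 bp upstream, was at 33.9 and 35.2 CPM in Nrl-/- libraries, 14.0 and 34.1 CPM in double-sorted green libraries, 38.3 and 26.9 CPM in single-sorted green libraries, and 52.5 and 59.7 CPM in rod libraries.

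The exception on chromosome 19 was the element nearest to the Neat1 start, 1.31 kb upstream. It was at 14.5 and 15.0 CPM in Nrl-/- libraries, 9.3 and 24.3 CPM in double-sorted green libraries, 19.8 and 25.1 CPM in single-sorted green libraries, and 7.9 and 8.3 CPM in rod libraries. All cone libraries were above both rod libraries, with log2 fold changes of 0.93 (SE 0.41) in cones and 0.88 (SE 0.31) in Nrl-/- photoreceptors that were not called against a change of 1 and passed against no change (adjusted p = 0.093 and 0.017). An element 4.86 kb upstream had the opposite sign, with -1.40 (SE 0.46) and -1.20 (SE 0.29). Neat1 RNA was lower in Nrl-/- photoreceptors, as given above. The Neat1 element with the highest mean, 48.7 kb upstream at the promoter of Tigd3, had fold changes of -0.59 (SE 0.46) and -0.25 (SE 0.17).

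**Figure D5:**
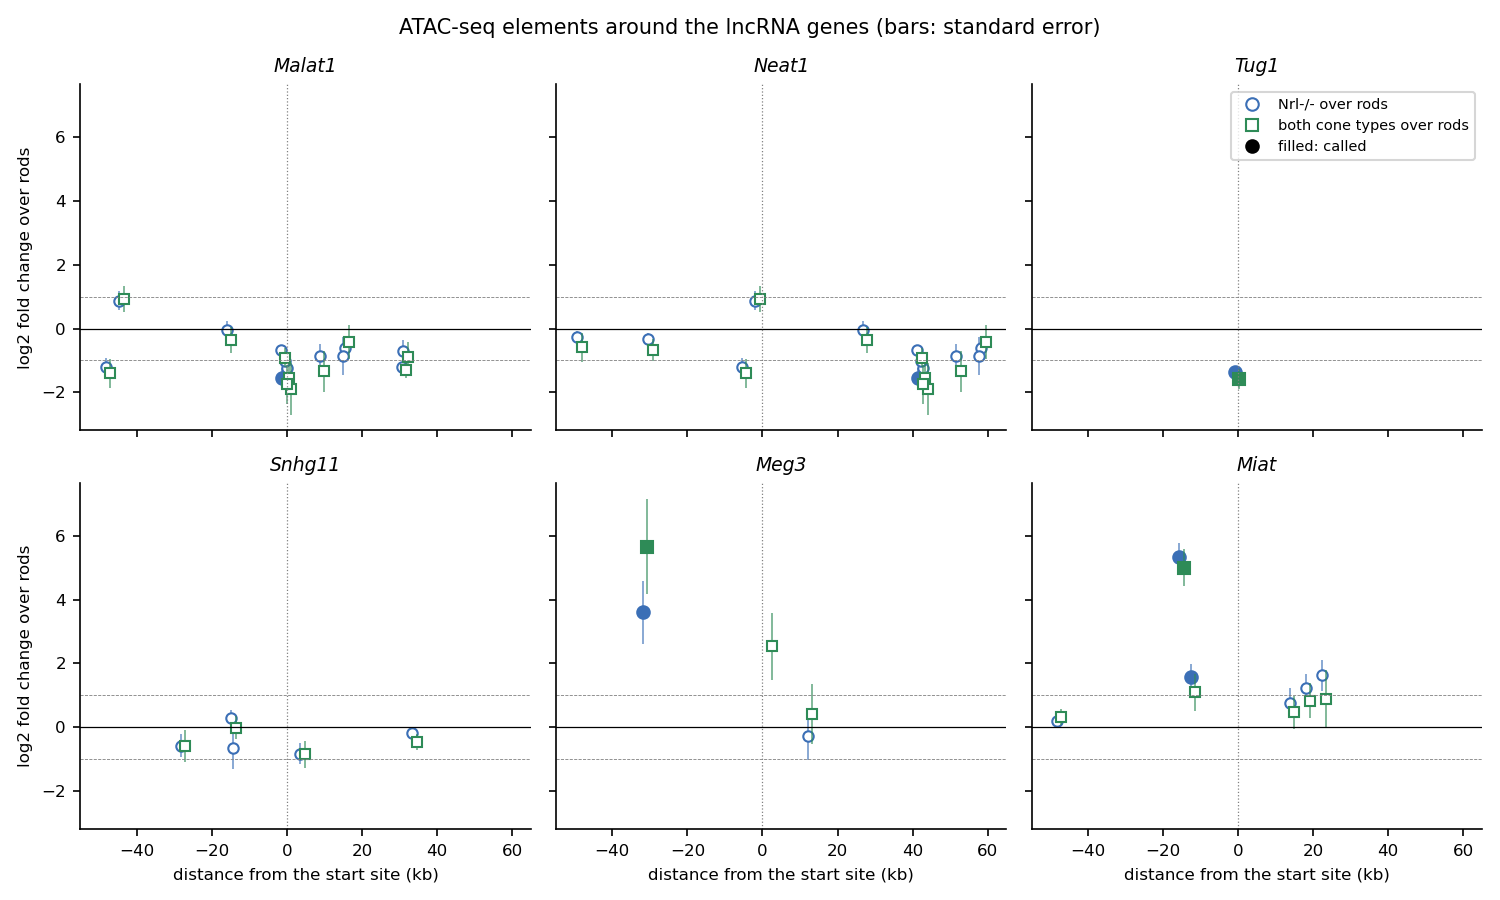
Log2 fold change over rods with its standard error against distance from the start site (negative, upstream) for the elements within 50 kb of 6 lncRNA genes, with circles for Nrl-/- photoreceptors, squares for both cone types and filled symbols for calls. Elements between Malat1 and Neat1 appear in both panels. Malat1 and Neat1 elements lie mostly below 0, and Miat elements above 0, up to 5.32 at the element 15.1 kb upstream.

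In the Dlk1-Dio3 region, 2 elements were open in green cones and nearly closed in rods. The Meg3 upstream element lies 31.3 kb before the Meg3 start, inside the predicted genes Gm34017 and Gm34081. It was at 3.3 and 2.3 CPM in Nrl-/- libraries, 38.1 and 7.2 CPM in double-sorted green libraries, 12 and 28.3 CPM in single-sorted green libraries, and 0 and 0.4 CPM in rod libraries. Its log2 fold change was 5.65 (SE 1.5, adjusted p = 0.029) in cones over rods and 3.60 (SE 0.99, adjusted p = 0.012) in Nrl-/- photoreceptors over rods. Since the rod libraries held 2 reads in all, ratios of summed levels over rods are given with exact 95% intervals, which were 13.3 (3.19 to 119) for Nrl-/- photoreceptors, 120.1 (31.8 to 1016) for double-sorted and 89.3 (24.1 to 746) for single-sorted green cones. The call in cones was lost without rod replicate 1 or 2. That in Nrl-/- photoreceptors was lost without rod replicate 1 (log2 fold change 2.75) and in DESeq2 (adjusted p = 0.371). Without Nrl-/- replicate 1 or 2 the element had too few reads for a test of Nrl-/- photoreceptors over rods.

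The Mirg element lies 344 bp past the end of Mirg. It was at 1.7 and 1.1 CPM in Nrl-/- libraries, 17.9 and 6.3 CPM in double-sorted green libraries, 7.6 and 15.0 CPM in single-sorted green libraries, and 0 and 0.4 CPM in rod libraries. As at the Meg3 element, every green cone library was above every Nrl-/- and rod library. Cones over rods gave a log2 fold change of 4.75 (SE 1.5, adjusted p = 0.062), a call lost without rod replicate 1 or 2. Without double-sorted replicate 3 or 4 the element had too few reads for this test. Ratios over the 2 rod reads were 6.67 (1.38 to 63.5) for Nrl-/- photoreceptors, 63.2 (16.0 to 546) for double-sorted and 51.5 (13.7 to 434) for single-sorted green cones. The element had too few reads for a test of Nrl-/- photoreceptors alone against rods. Inside Meg3, elements 2.04 kb and 12.7 kb downstream of the start had fold changes in cones over rods of 2.53 (SE 1.04) and 0.42 (SE 0.94), without a call, the first being called without Nrl-/- replicate 2 (2.94, adjusted p = 0.083).

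Near Miat, which had no reads in RNA-seq, 1 of 6 elements was called more open in cones over rods and 2 in Nrl-/- photoreceptors over rods. Over all tested elements, 18.1% and 21.0% were called higher in these comparisons. All 6 elements near Miat had positive fold changes over rods in both comparisons, except that the element 47.7 kb upstream, at the promoter of the tyrosylprotein sulfotransferase gene Tpst2, became slightly negative when libraries were scaled by processed reads. Of all elements tested, 53.9% and 52.6% had positive fold changes. The element 15.1 kb upstream of Miat was at 25.7 and 23.6 CPM in Nrl-/- libraries, 18.7 and 10.8 CPM in double-sorted green libraries, 9.0 and 19.2 CPM in single-sorted green libraries, and 0.4 and 0.8 CPM in rod libraries. Every cone library was far above both rod libraries, with log2 fold changes of 5.0 (SE 0.58, adjusted p = 0.00051) in cones and 5.32 (SE 0.45) in Nrl-/- photoreceptors. It was called with any single library left out (4.65 to 5.44 and 4.96 to 5.77). Ratios over the 6 rod reads were 41.0 (18.5 to 113) for Nrl-/- photoreceptors, 25.3 (10.6 to 73.4) for double-sorted and 21.2 (9.31 to 59.4) for single-sorted green cones.

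A nearer Miat element, 12 kb upstream, was higher in Nrl-/- photoreceptors. It was at 16.6 and 11.3 CPM in Nrl-/- libraries, 4.7 and 4.5 CPM in double-sorted green libraries, 5.6 and 5.5 CPM in single-sorted green libraries, and 5.4 and 3.8 CPM in rod libraries, so green cones and rods lay together. Nrl-/- photoreceptors over rods gave 1.59 (SE 0.38, adjusted p = 0.073), a call lost without rod replicate 2, without Nrl-/- replicate 1, in DESeq2 and with scaling by processed reads (adjusted p between 0.042 and 0.313 with libraries left out in turn). Cones over rods gave 1.09 (SE 0.57), without a call. Tpst2 RNA did not separate the groups, at 6.83, 9.84 and 7.67 CPM in Nrl-/- libraries, against 7.04, 8.45 and 7.90 CPM in rod libraries.

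Near Snhg11 no element was called. The element inside the gene, 4.22 kb downstream of the start, was at 6.6 and 7.7 CPM in Nrl-/- libraries, 10.9 and 3.6 CPM in double-sorted green libraries, 6.8 and 3.6 CPM in single-sorted green libraries, and 13.5 and 12.6 CPM in rod libraries. Its log2 fold changes were -0.85 (SE 0.42) in cones and -0.83 (SE 0.33) in Nrl-/- photoreceptors, the opposite sign to the RNA difference. The most open element, 34 kb downstream at the promoter of Ralgapb, had -0.46 (SE 0.25) and -0.18 (SE 0.13). The neighbouring lncRNA Snhg17 had a log2 fold change of -0.98 (SE 0.20) in RNA-seq and Ralgapb one of -0.91 (SE 0.16), also opposite in sign to Snhg11.

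Finally, Nrl-/- photoreceptors were compared with double-sorted green cones, the native cones. Of 25 tested elements 0 were called higher and 0 lower, where 0.00234% and 0.0374% of 42732 elements were. At an unadjusted p under 0.05 the same test passed 4, and DESeq2 called 0 in each direction. The share of all elements at that unadjusted limit is not given, so the 4 cannot be judged against it. Against no change 2 were lower in Nrl-/- photoreceptors (1.99% of all elements) and 0 higher (1.06%), and the 2 were the Meg3 upstream element (log2 fold change -3.06, SE 0.74, adjusted p = 0.087) and the Mirg element (-3.14, SE 0.75, adjusted p = 0.084). Without double-sorted replicate 4 both were called against a change of 1 (-3.82, adjusted p = 2.91e-07, and -3.70, adjusted p = 0.0052), and over libraries left out in turn their adjusted p reached 0.993 and 1.00. With the single-sorted green libraries used instead, both were called against a change of 1 (-2.83, adjusted p = 0.0041, and -3.0, adjusted p = 0.017). The Tug1 promoter had 0.51 (SE 0.46) and the Miat element 15.1 kb upstream 0.72 (SE 0.40). The median over the 25 was 0.51, against 0.04 over all elements. In the double-sorted green libraries 3 reads correspond to 2.33 and 2.69 CPM.

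The deposited peak lists, called by the authors on each cell type, were searched for the 31 elements with an overlap of at least 1 bp. Of the 31, 25 lay in a peak of Nrl-/- photoreceptors, 19 in double-sorted green cones, 26 in single-sorted green cones and 22 in rods, where 82, 73.5, 84.6 and 60.9% of all elements did. Peaks in Nrl-/- photoreceptors, double-sorted green cones and rods alike held 14 of the 31. The Tug1 promoter and the Malat1 element 664 bp upstream were in all 4 lists, the Meg3 and Mirg elements were in both green cone lists only, and the Miat element 15.1 kb upstream was in the Nrl-/- and both green cone lists. The Miat element 12 kb upstream, called higher in Nrl-/- photoreceptors than in rods, was in the Nrl-/-, single-sorted green and rod lists, and its peak had a fold enrichment of 8.35 in Nrl-/- photoreceptors and 11.4 in rods, the opposite order to its CPM.

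Motif letters were searched on both strands of each element. GGGCGG was in 29% of the 31 elements and in 26.8% of all 53204, and CCAAT in 25.8% and 24.7%. CTAATCC was in 1 of the 31 (7.61% of all elements), which was the Meg3 upstream element, TAATTA in 2 (4.71%), and AGGTCA in 3 (14.9%). CATATG was in 1 (2.5%), TGCTGAC, part of a MAF site, in 2 (3.98%), the CTCF motif in 1 (3.53%) and the MEF2 site CTATTTTTA in 0 (0.609%). A match describes the letters of a window and is not a binding site. The bZIP factor motif TGANTCA, which the study reports as enriched in cone-specific open chromatin, was not among the motifs searched.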

How the data were processed

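The authors deposited whole-number read counts per gene for RNA-seq and per element for ATAC-seq. Per the study's methods, RNA-seq reads (SMARTer Ultra Low libraries) were mapped by STAR 2.4.2a, and HTSeq 0.6.1p1 counted them per gene, leaving out reads with several alignments, and ATAC-seq reads were aligned with Bowtie2 2.2.3, filtered with SAMtools 1.3 and Picard 1.121 and kept at short fragment length, with peaks from MACS2 2.1.0 and bedtools 2.24.0 and HOMER 4.8 used downstream. The deposited peak lists also hold a score, a fold enrichment ratio and a −log10 q per peak, called by the authors for each cell type at an irreproducible discovery rate limit. Reads assigned to no gene (41.3 to 49.2% per library) were left out.

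Counts were normalized by TMM, filtered with filterByExpr and fitted in edgeR 4.0.16 (R 4.3.3), with glmTreat against a log2 fold change of 1, adjusted over all features. CPM uses TMM-scaled library sizes, and RPKM the union of RefSeq exons. The fit was tested on simulated data. Alternatives were DESeq2 1.42.0, other normalizations, filters, thresholds and windows, and each library left out. Members, lists and elements named (those called, at promoters, inside a gene or close upstream of it, or most open, except 1 near Malat1 that is not reported here) were chosen with earlier results of these data known. GGGCGG and CCAAT were added after the data were seen. Every list's result is given in the text except the remaining markers: 0 of 3 amacrine, 1 of 3 horizontal and 1 of 3 ganglion cell, 1 of 2 pigment epithelium and 0 of 1 erythrocyte markers tested were called higher, and 1 of 4 endothelial markers lower.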

Additional observations from a re-analysis of the deposited data

Results flagged for a closer look

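Among the 4 cone libraries set against rods (2 of Nrl-/- photoreceptors and 2 of double-sorted green cones), double-sorted replicate 3 stood apart at 3 of the 31 elements by Dixon's test at the 95% level, which chance passes in about 1 group of 20. It was high at the Meg3 element 31.3 kb upstream (38.1 CPM) and low at the Malat1 element 977 bp upstream (14.0 CPM) and the Neat1 element 48.7 kb upstream (4.66 CPM).

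Nrl-/- photoreceptors differed from double-sorted green cones against no change at the Meg3 element 31.3 kb upstream (log2 fold change -3.06) and the Mirg element (-3.14). At both elements the Nrl-/- libraries lay below every green cone library and above both rod libraries.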

How the results depend on the processing

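Replicate numbers did not pair the libraries: deviations of same-numbered Nrl-/- and rod libraries correlated at 0.127, 0.0493 and 0.0226 in RNA-seq and at 0.0264 in ATAC-seq. With the replicate number as a block, 1 lncRNA was called higher (Snhg11, 1.48, adjusted p = 0.045) and 1 lower (Malat1, -1.54, adjusted p = 0.025) in RNA-seq. Over all genes 1642 were called higher and 873 lower in that fit. In ATAC-seq the block fit held only Nrl-/- and rod libraries. There 2 elements were lower in Nrl-/- photoreceptors, where 3076 of all elements were. The Meg3 element 12.7 kb downstream had a log2 fold change of 0.020 in that fit. No paired fit was made against green cones, which share no number with the Nrl-/- libraries.

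In RNA-seq 1 lncRNA was called lower without a filter, and 1 higher and 3 lower against no change. For cones over rods, calls were 0 lower in DESeq2, 5 higher and 7 lower against no change, 0 lower at an adjusted p under 0.05, 6 lower with scaling by processed reads and 1 higher within 10 kb. For Nrl-/- photoreceptors over rods they were 1 higher and 0 lower in DESeq2, 6 higher and 10 lower against no change, 1 lower at an adjusted p under 0.05, 1 higher with scaling by processed reads and 0 higher within 10 kb. For Nrl-/- photoreceptors over green cones they were 2 lower against no change, and 1 higher and 3 lower with single-sorted cones. With libraries left out in turn, calls were 0 to 1 higher and 0 to 1 lower in RNA-seq, 1 to 4 higher and 0 to 2 lower in cones, 2 higher and 1 to 2 lower in Nrl-/- photoreceptors over rods, and 0 to 2 in each direction against green cones. Cone calls were 1 higher without rod replicate 1 or 2, 0 lower without rod replicate 1, rod replicate 2 or Nrl-/- replicate 2, and 2 lower without double-sorted replicate 4. Calls in Nrl-/- photoreceptors over rods were 1 lower without rod replicate 2 or Nrl-/- replicate 1. Against green cones, calls were 1 higher without double-sorted replicate 3, and 2 higher and 2 lower without replicate 4, among them the Neat1 element 48.7 kb upstream (2.85, adjusted p = 0.0047) and the Malat1 element 664 bp upstream (7.14, adjusted p = 0.055). A group left with 1 library is assumed to vary like the other. Calls over all elements moved with the setting too. In cones over rods they were 9340 higher and 2054 lower in the main fit, against 6495 and 687 in DESeq2. In Nrl-/- photoreceptors over rods they were 10377 and 3151, against 5982 and 1307. With green cones they were 1 and 16, against 522 and 927 with single-sorted cones. Changes in the counts near the lncRNAs are therefore not read as particular to them. The cause of these changes was not tested.

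Signs turned with scaling by processed reads at the Meg3 element 12.7 kb downstream (-0.047 in cones) and the Miat element 47.7 kb upstream (-0.023 in cones, -0.35 in Nrl-/- photoreceptors), and against single-sorted green cones at the Tug1 promoter (-0.19), the Malat1 element 664 bp upstream (-0.62) and the Miat element 47.7 kb upstream (0.28). With libraries left out, ranges crossed 0 for Meg3 RNA (-1.09 to 0.088), for the Meg3 element 12.7 kb downstream (-0.31 to 1.95 in cones, -1.04 to 1.24 in Nrl-/- photoreceptors) and, against green cones, for the Tug1 promoter (-0.13 to 1.54), the Malat1 element 664 bp upstream (-0.73 to 7.14), the Neat1 element 48.7 kb upstream (-0.018 to 2.85) and the Miat element 47.7 kb upstream (-0.73 to 0.25).

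Few reads limit the Dlk1-Dio3 lncRNAs and their elements in rods, and the double-sorted green libraries are the shallowest. With an overlap of at least 100 bp, 18 elements lay in double-sorted green peaks.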
